A study of Homo sapiens with 12 samples.

Results

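The genes described here are 51 cell surface and matrix molecules with which neurons build synapses and bundle, guide and insulate axons, picked out of the tables by gene symbol. They fall into 14 families: neurexins, neuroligins, LRRTMs, contactins, contactin-associated proteins, SLITRKs, FLRTs, LAR-type receptor phosphatases, latrophilins, SynCAMs, NCAMs, teneurins, the L1 family (*NFASC*, *L1CAM*, *CHL1* and *NRCAM*) and agrin. All 51 had a row in the motor neuron table, which holds 15899 gene symbols, and 49 had a row in the NGN2 neuron table, which holds 18390. The rule reads the symbol and no level.

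The study compared knockdown of *SMN1* and *SMN2* by a lentiviral shRNA (*SMN*-KD) with a scrambled shRNA (SCR) in human neurons, by RNA-seq of total RNA depleted of ribosomal RNA, with 3 libraries in each of 4 groups. The motor neurons (iMNs) came from 1 induced pluripotent stem cell line in which the HB9 promoter drives Td-Tomato, and were isolated by sorting for that reporter. The excitatory neurons (i3Ns) came from H1, an embryonic stem cell line engineered for inducible NGN2, a proneural transcription factor. All cultures of both types were given an shRNA lentivirus, and the share of cells that took it up is not given in the sources used here. Nothing in the labels says whether the 3 libraries of a group came from separate cultures. The 2 tables give 1 level for each gene, the authors' mean over the 6 libraries of a cell type, both shRNAs pooled, of counts divided by size factors (mean normalized count). Values of single libraries and the difference between *SMN*-KD and SCR were not analysed here, so the levels below carry no error, no statement on knockdown is made, and no difference was tested. Depth per library is unknown. The pooled level of *SMN1* and *SMN2*, near-identical copies whose reads cannot be assigned with certainty, summed to 1174 in the iMN table and 1079 in the i3N table, and says nothing of either group.

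Synaptic adhesion molecules are membrane proteins that meet across the cleft. Presynaptic neurexins and LAR-type phosphatases are the hubs, and bind postsynaptic neuroligins, LRRTMs, SLITRKs and other ligands, while latrophilins bind teneurins and FLRTs. Contactins, contactin-associated proteins and the L1 family act mainly along the axon, where they hold axons together, build the axon initial segment and join axon to glia beside the node of Ranvier, and motor axons release agrin to gather acetylcholine receptors at the muscle.

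The labels were first set against marker genes. The pan-neuronal list stood at a mean normalized count of at least 1000 for 8 of 8 genes in both tables. Over all genes, 48.3% of the iMN table and 42% of the i3N table reached that level. Of 8 motor neuron markers, all had a row in both tables, and 4 in the iMN table and 6 in the i3N table were at 1000 or more. The count of 4 lies near the share over all genes. *MNX1*, the gene of HB9 itself, stood at 430 in the iMN table and 2279 in the i3N table, and *ISL1* at 1663 and 14299, so these markers of motor neuron identity went against the labels. Of the cholinergic genes, *SLC5A7*, the choline transporter, stood at 8460 and 2472, and *CHAT*, the enzyme of acetylcholine synthesis, at 533 and 527. Of the glutamatergic list, *SLC17A6*, a vesicular glutamate transporter, stood at 593 and 11237. Of 18 HOX genes, looked at after the levels had been seen, 14 in the iMN table and 0 in the i3N table reached 1000, with *HOXA5*, a gene of cervical cord identity, at 10544 and 3.36. In the i3N table *POU4F1*, a sensory neuron factor also looked at afterwards, stood at 13128, against 24.2 in the iMN table. The cells are therefore called by their tables below. Markers of other cells also moved between the tables. Each level was divided by the sum of its table and multiplied by 1000000 (scaled level), since the tables had been normalized separately. On this scale the progenitor and cycling list summed to 148 in the iMN table and 681 in the i3N table. Most of both sums came from *NES*, at mean normalized counts of 6043 and 29662. The cycling genes *MKI67* (28.3 and 522) and *TOP2A* (22.5 and 311) and also *HES1* (18.8 and 43.4) were higher in the i3N table. The progenitor genes *SOX2* (53.9 and 38.9) and *PAX6* (234 and 102) went the other way. The pluripotent list summed to scaled levels of 4.96 and 98.3, nearly all from *LIN28A*, at mean normalized counts of 215 and 4216. *DPPA4*, *ZFP42* and *NANOG* had no row in the iMN table and stood at 193, 9.83 and 7.73 in the i3N table. The lowest level listed in the iMN table was also 7.73, so the missing rows of *ZFP42* and *NANOG* show no difference. The mesenchymal list summed to 60.6 and 145 and the oligodendrocyte and Schwann cell list to 10.7 and 35.8, while the astrocyte list summed to 3.03 and 2.74, with *GFAP* and *AQP4* in neither table. Their part in the levels below was not tested.

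Most of the adhesion genes had high mean normalized counts in both tables. The levels, percentiles and shares in this paragraph are not divided by gene length. They therefore do not compare members with other genes per kilobase, and the part of length in them was not tested. The median mean normalized count was 4411 over the 51 in the iMN table, against 925 over all its genes, and 4933 over the 49 in the i3N table, against 620. The median member stood at percentile 84.3 of the iMN table and 87.4 of the i3N table, and 21 and 22 members were at percentile 90 or above. A level of at least 1000 was reached by 41 of 51 members in the iMN table (80.4%), beside 48.3% of all its genes. It was reached by 38 of 49 in the i3N table (77.6%), beside 42% of all genes. Of the 51, 35 reached 1000 in both tables, 6 in the iMN table alone, 3 in the i3N table alone and 7 in neither. The members made up 1.08% of the summed table for iMNs and 1.03% for i3Ns. Both tables thus hold the group at a similar total, and the differences lay in which members carried it.

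**Figure D1:**
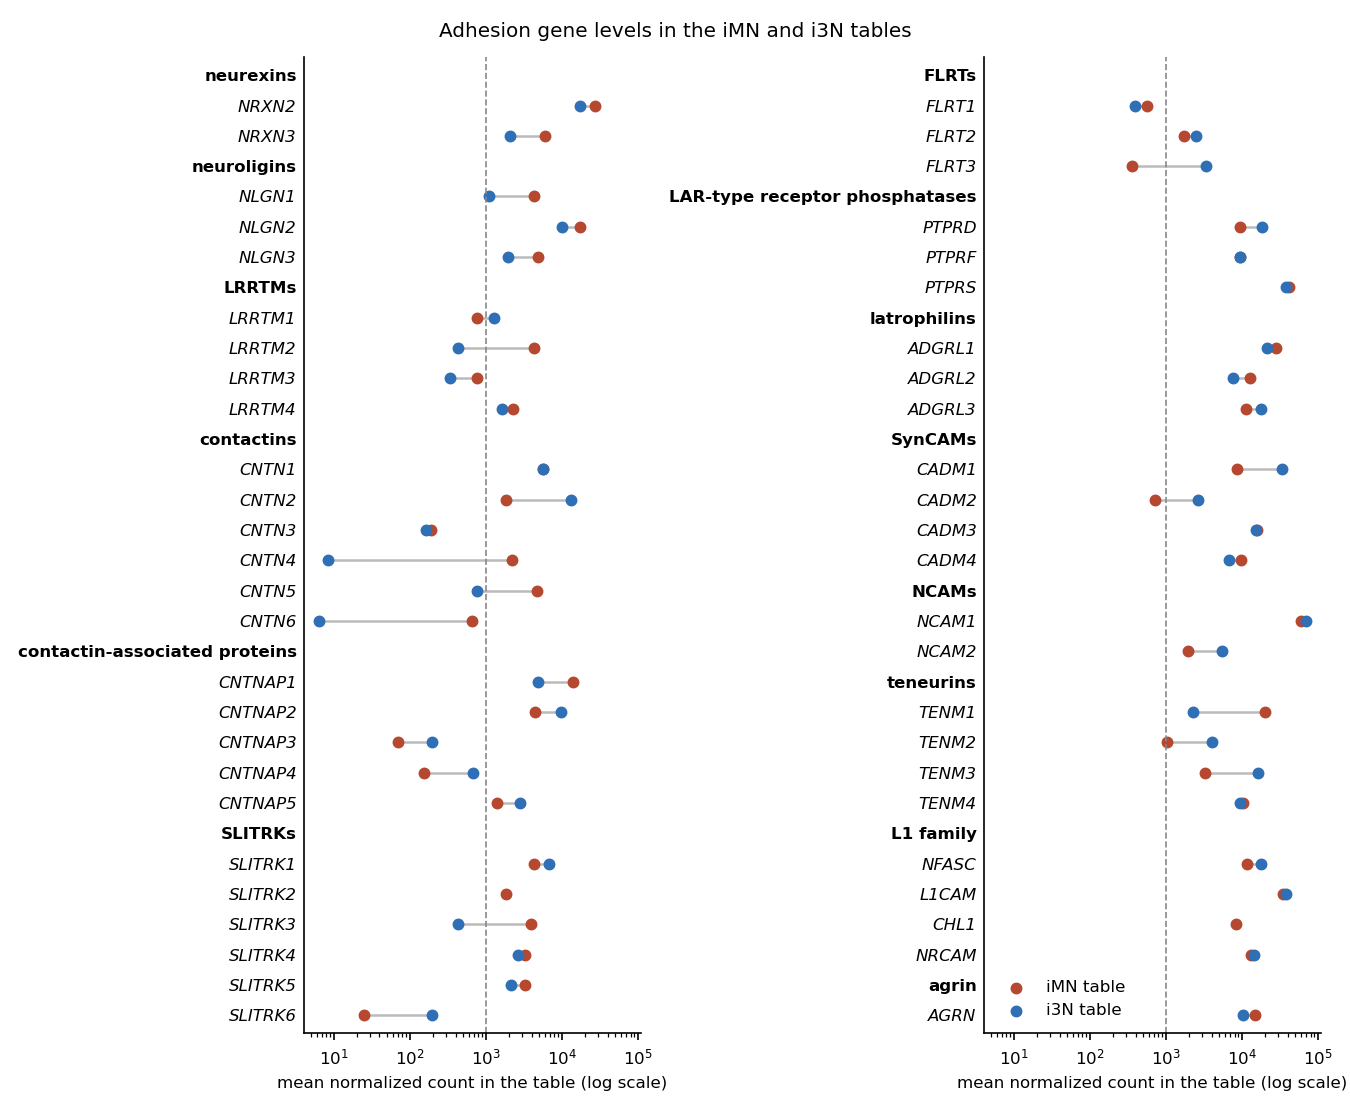
Mean normalized count (log axis) of 50 of the 51 genes in the iMN table (red) and the i3N table (blue), by family, each point being the authors' mean over 6 libraries, with a grey line joining the pair and a dashed line at 1000. The points of most genes lie to the right of 1000 and near each other, while *CNTN4* and *CNTN6* stand far apart, and *SLITRK2* and *CHL1* have an iMN point only.

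The cell types were compared in scaled level. The stem cell line, the differentiation method, the sort and the neuron type all differ between the tables and cannot be told apart, and in bulk RNA fewer cells of a type cannot be told apart from less RNA per cell. On this scale 11 of the 49 shared members (22.4%) were at least 2-fold higher in the iMN table, beside 13.9% of the 15666 genes in both tables. Another 11 (22.4%) were at least 2-fold higher in the i3N table, beside 9.82% of all shared genes. The remaining 27 lay within 2-fold. The median log2 difference of i3N minus iMN was -0.13 for members and 0.02 for all shared genes, and the median absolute log2 difference was 0.82 for members and 0.47 for all. The members thus lay farther apart than the typical gene, without a common direction. At 4-fold or more, 7 members were higher in the iMN table (*CNTN4*, *CNTN6*, *LRRTM2*, *SLITRK3*, *TENM1*, *CNTN5* and *NLGN1*) and 5 in the i3N table (*FLRT3*, *SLITRK6*, *CNTN2*, *TENM3* and *CNTNAP4*).

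**Figure D2:**
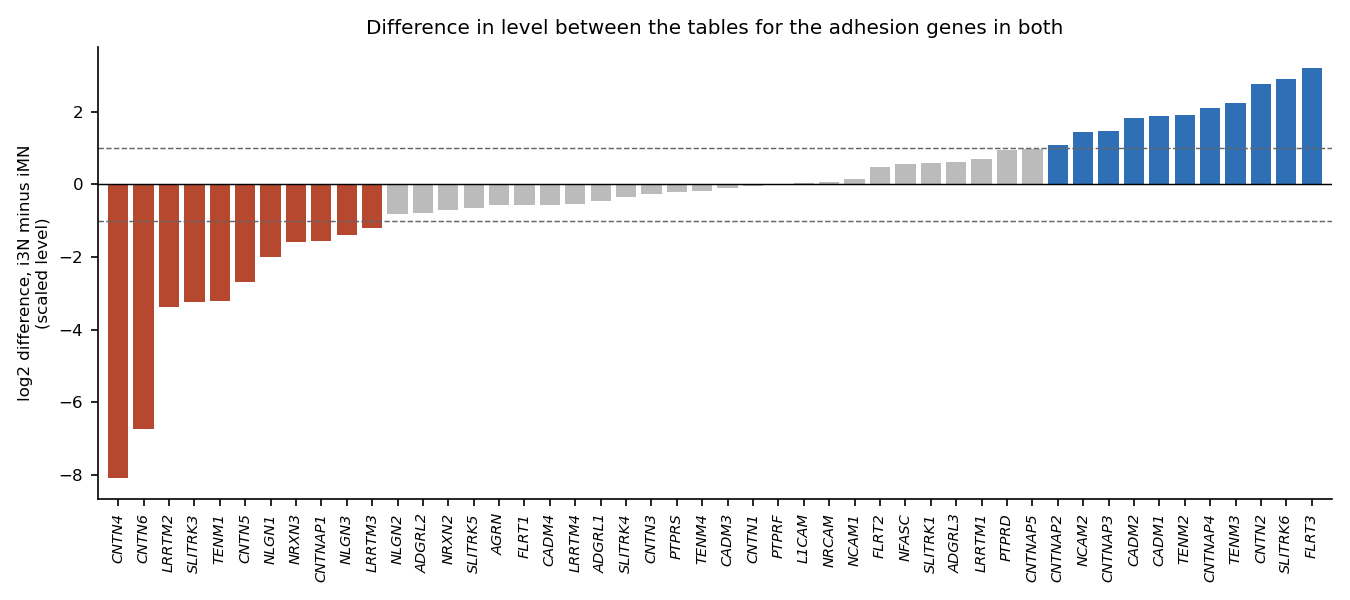
Log2 difference in scaled level, i3N table minus iMN table, for 48 of the 49 genes found in both, in rising order, with dashed lines at 2-fold. Bars past 2-fold are red where the iMN table is higher and blue where the i3N table is higher, 11 of each, and the 2 leftmost bars, *CNTN4* and *CNTN6*, reach -8.08 and -6.73.

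The presynaptic hubs were held at high levels in both tables. *NRXN2*, which like the other neurexins is a receptor on the axon terminal, stood at a mean normalized count of 27200 in the iMN table and 17332 in the i3N table. *NRXN3* stood at 5933 and 2054, and its scaled level was 3.00-fold higher in the iMN table. Genes of unequal length are compared below in scaled level per kilobase of merged exon. Of the LAR-type phosphatases, whose extracellular domains bind SLITRKs and other postsynaptic ligands, *PTPRS* stood at mean normalized counts of 41726 and 37494 and *PTPRF* at 9387 and 9536. *PTPRD* stood at 9399 and 18614, 1.90-fold higher in scaled level in the i3N table. *PTPRS* gave 67.6% of the family per kilobase in the iMN table and 55.8% in the i3N table, as the share of *PTPRD* went from 15.7% to 28.5%.

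Of the postsynaptic neurexin ligands among the members, the neuroligins *NLGN1*, *NLGN2* and *NLGN3* and the LRRTMs, all were higher in the iMN table apart from *LRRTM1*. *NLGN2*, the neuroligin of inhibitory synapses, stood at 17154 in the iMN table and 10098 in the i3N table, and gave 83.9% of these 3 neuroligins per kilobase in the former. *NLGN1*, the neuroligin of excitatory synapses, stood at 4252 and 1105, a 4.002-fold difference in scaled level. *NLGN3*, found at both kinds of synapse, stood at 4879 and 1939, a 2.62-fold difference. Per kilobase, *NLGN1* and *NLGN3* gave 3.14% and 6.87% of the 3 in the i3N table and *NLGN2* the rest. Summed, the 3 had a scaled level of 607 in the iMN table and 292 in the i3N table. A further neuroligin outside the rule, *NLGN4X*, stood at 9405 and 5291, a level that is uncertain because the gene has a near-identical copy, and with it the share of *NLGN2* per kilobase was 62.0% and 66.1%. The LRRTMs are leucine-rich repeat proteins of the postsynaptic membrane. *LRRTM2* stood at a mean normalized count of 4256 in the iMN table and 426 in the i3N table, 10.4-fold apart in scaled level. *LRRTM4* stood at 2287 and 1635, *LRRTM1* at 762 and 1277, and *LRRTM3* was under 1000 in both. The leading LRRTM per kilobase was therefore *LRRTM2* with 50.3% in the iMN table and *LRRTM4* with 44.4% in the i3N table.

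Of the SLITRKs, single-pass proteins that bind LAR-type phosphatases, *SLITRK1* led per kilobase in both tables, with 37.1% of the family in the iMN table and 71.6% in the i3N table. Its mean normalized counts were 4363 and 6825. *SLITRK3*, known for a role at inhibitory synapses, stood at 3886 and 429, 9.41-fold higher in scaled level in the iMN table. *SLITRK4* stood at 3260 and 2677 and *SLITRK5* at 3306 and 2167, each within 2-fold. *SLITRK2* stood at 1863 in the iMN table and has no row in the i3N table used here, so it entered the i3N shares as 0. *SLITRK6* was low in both, at 25.3 and 197, and 7.48-fold higher in scaled level in the i3N table.

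The latrophilins and their ligands differed between families. The 3 latrophilins, adhesion G protein-coupled receptors, were each within 2-fold between the tables. *ADGRL1* stood at 28235 and 21402, *ADGRL2* at 12806 and 7699, and *ADGRL3* at 11239 and 17770. *ADGRL1* led per kilobase with 72.2% in the iMN table and 62.6% in the i3N table. Of the FLRTs, which bind latrophilins and the guidance receptors of the UNC5 family, *FLRT3* stood at 356 in the iMN table and 3424 in the i3N table, 9.26-fold apart in scaled level, and *FLRT2* at 1751 and 2511. *FLRT1* was under 1000 in both. The share of *FLRT3* in the family per kilobase was 27.6% in the iMN table and 80.5% in the i3N table. In the iMN table *FLRT1* led with 53.8%, but *FLRT2* did when levels were divided by coding length.

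The teneurins, large transmembrane proteins that bind latrophilins and each other in matching of synaptic partners, kept a similar sum with another leading member. Summed, the 4 genes had a scaled level of 799 in the iMN table and 706 in the i3N table. *TENM1* stood at mean normalized counts of 20052 and 2268, 9.19-fold higher in scaled level in the iMN table. *TENM3* stood at 3278 and 16087, 4.72-fold higher in the i3N table. *TENM4* was nearly level, at 10275 and 9466. *TENM2* was the least abundant in the iMN table, at 1023, and stood at 3987 in the i3N table. Per kilobase, *TENM1* gave 61.0% of the family in the iMN table and 7.37% in the i3N table, and *TENM3* 11.2% and 59.0%.

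**Figure D3:**
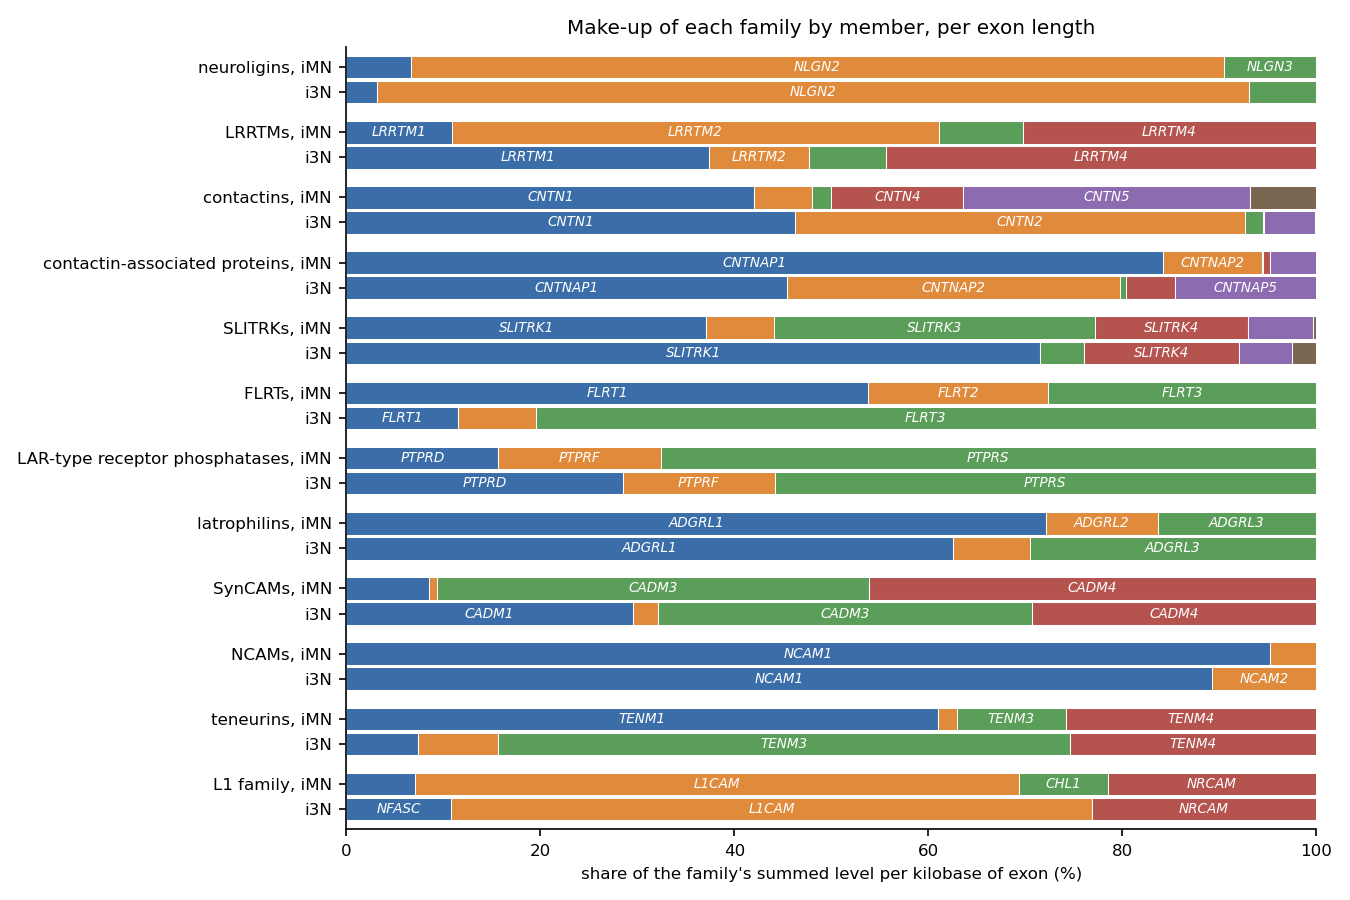
Share (%) of each member in the summed level of its family after division by merged exon length, for 12 of the 13 families with several members, with the iMN table above the i3N table in each pair. The leading member is the same in both tables for 7 of these 12 families, and the teneurins, FLRTs, LRRTMs, contactins and SynCAMs show a different leader in each. *SLITRK2* and *CHL1*, with no i3N row, enter the i3N shares as 0.

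Most of the axonal glycoproteins that bundle axons were abundant and alike in the tables. *NCAM1*, a homophilic adhesion protein of developing axons, had the highest mean normalized count of the members in both tables, 60033 and 69359. Its paralog *NCAM2* stood at 1939 and 5456, 2.71-fold higher in scaled level in the i3N table. *L1CAM*, which promotes axon outgrowth and fasciculation, stood at 35038 and 37434. *NRCAM*, an L1 relative found at nodes and initial segments, stood at 13236 and 14333, and *NFASC*, which assembles both, at 11572 and 17815. These 3 L1 genes lay within 2-fold in scaled level. The exception in the family was *CHL1*, the close homolog of L1, at 8275 in the iMN table with no row in the i3N table used here. Of the 7687 genes at 1000 or more in the iMN table, 12 have no i3N row, and 2 of these, *CHL1* among them, stand at or above the level of *CHL1*. A missing row is not a measured 0, and which filter removed it is not given in the sources used here.

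The contactins, GPI-anchored immunoglobulin proteins of the axon, showed the widest differences. *CNTN1*, which pairs with *CNTNAP1* in the paranodal junction, stood at 5681 in the iMN table and 5661 in the i3N table. *CNTN2*, known as TAG-1 and found on outgrowing axons and beside the node, stood at 1868 and 13169, 6.78-fold higher in scaled level in the i3N table. *CNTN5* stood at 4734 and 769, 6.40-fold higher in the iMN table. *CNTN4* stood at 2190 and 8.42, and *CNTN6* at 661 and 6.46, which is 271-fold and 106-fold higher in scaled level in the iMN table. With 10 normalized counts added to both levels, these ratios were 124-fold and 42.4-fold, since the i3N levels lie near the lowest level of that table, 1.37. Of the 15666 shared genes, 10 had a log2 difference as low as that of *CNTN4* or lower, itself included. *CNTN3* was low in both, at 190.1 and 164. Per kilobase, *CNTN1* led in the iMN table with 42.1%, and in the i3N table *CNTN2* with 46.4% and *CNTN1* with 46.2% were nearly level. With other lengths *CNTN2* was clearly ahead in the i3N table. Its share was 59.1% by longest transcript, 65.4% by coding length and 66.6% with no division by length.

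The contactin-associated proteins are the membrane partners of the contactins. *CNTNAP1*, needed for the paranodal junction, stood at 13962 in the iMN table and 4933 in the i3N table, 2.94-fold apart in scaled level. *CNTNAP2*, which clusters potassium channels beside the paranode, stood at 4411 and 9677, 2.11-fold higher in scaled level in the i3N table. That level sums an identifier of the main annotation (2608 and 4740) and another outside it (1803 and 4937), and the first alone gave 1.75-fold. *CNTNAP5* stood at 1407 and 2857 and *CNTNAP4* at 155 and 686, the latter 4.26-fold higher in the i3N table. *CNTNAP3*, at 69.4 and 197, has close copies (*CNTNAP3B* stood at 150 and 297) and its level is uncertain. The share of *CNTNAP1* in the family per kilobase was 84.2% in the iMN table and 45.4% in the i3N table, with *CNTNAP2* at 10.2% and 34.3%. Divided by coding length, *CNTNAP2* led in the i3N table, but with its main identifier alone *CNTNAP1* and *CNTNAP2* were level at 35.7% each, and per kilobase of merged exon the share of *CNTNAP2* was 20.4%.

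The 4 SynCAMs are homophilic and heterophilic immunoglobulin proteins on both sides of the synapse and along axons. *CADM1* stood at 8671 in the iMN table and 33402 in the i3N table, 3.70-fold higher in scaled level in the latter. *CADM2* stood at 721 and 2632, a 3.51-fold difference in the same direction. *CADM3* was nearly level at 15875 and 15320, and *CADM4*, with a role in axon and Schwann cell contact, stood at 9639 and 6810. Summed, the SynCAMs had the largest scaled level per kilobase of merged exon of the 14 families, 214 in the iMN table and 229 in the i3N table. That rank depends on the division by length. Without it the SynCAMs summed to 806 and 1291, under the L1 family at 1572 and 1545 and the NCAMs at 1431 and 1661. The i3N sum of the L1 family lacks *CHL1*, which has no row there. Per kilobase of merged exon, *CADM4* (46.1%) was ahead in the iMN table and *CADM3* (38.6%) in the i3N table. Divided by coding length, *CADM3* led in the former and *CADM1* in the latter. *AGRN* stood at 14819 and 10300, within 2-fold in scaled level.

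The genes of *CHL1*, *CNTN6* and *CNTN4* are the first 3 protein-coding genes from the short-arm end of chromosome 3 in GENCODE release 44 on GRCh38 (hg38). They lie on the plus strand at chr3:196763-409417, chr3:1092658-1404217 and chr3:2098813-3057959. They stood at 8275, 661 and 2190 in the iMN table, while *CNTN6* and *CNTN4* were under 10 and *CHL1* had no row in the i3N table. The next protein-coding gene, *IL5RA*, a cytokine receptor subunit, stood at 5.77 in the i3N table and has no row in the iMN table used here. The lowest level listed in the iMN table was 7.73, so that missing row shows no difference. Beyond *IL5RA* the i3N table held *TRNT1* at 495 (1346 in the iMN table), *CRBN* at 1927 (1245) and *LRRN1*, a leucine-rich repeat neuronal protein, at 4639 (2058). The 2 shared members with the lowest i3N levels and the more abundant of the 2 missing members are thus neighbours, a position looked at after the levels had been seen.

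**Figure D4:**
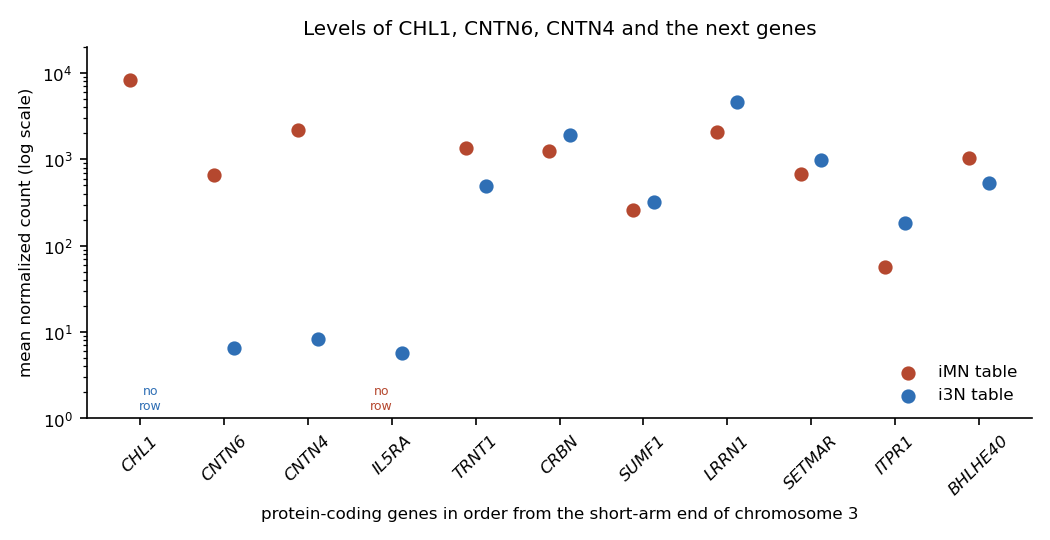
Mean normalized count (log axis) of the first 11 protein-coding genes of chromosome 3, in their order from the end of the short arm, in the iMN table (red) and the i3N table (blue), with "no row" where a table used here lists none. *CNTN6* and *CNTN4* stand at 6.46 and 8.42 in the i3N table, while the genes from *TRNT1* on have levels above 50 in both tables.

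The 250 bases before the first listed RefSeq start of these 3 genes (GRCh38.p14, plus strand) are shown. They were chosen because *CNTN6* and *CNTN4* were low in the i3N table and *CHL1* beside them has no row there. CG dinucleotides, the main sites at which mammalian DNA can be methylated, are in capitals, and methylation was not measured. The 3 stretches lie at chr3:197639-197888, chr3:1092774-1093023 and chr3:2098616-2098865.
CHL1: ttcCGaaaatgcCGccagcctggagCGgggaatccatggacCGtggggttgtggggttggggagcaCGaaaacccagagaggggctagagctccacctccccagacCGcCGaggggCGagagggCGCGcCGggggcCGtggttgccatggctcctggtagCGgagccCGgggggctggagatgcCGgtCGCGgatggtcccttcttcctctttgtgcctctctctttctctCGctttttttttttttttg
CNTN6: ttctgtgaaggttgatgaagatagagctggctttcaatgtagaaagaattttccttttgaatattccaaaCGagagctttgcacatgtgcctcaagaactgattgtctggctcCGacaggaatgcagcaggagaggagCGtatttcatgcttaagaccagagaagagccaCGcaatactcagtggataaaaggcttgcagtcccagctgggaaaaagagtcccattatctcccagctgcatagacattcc
CNTN4: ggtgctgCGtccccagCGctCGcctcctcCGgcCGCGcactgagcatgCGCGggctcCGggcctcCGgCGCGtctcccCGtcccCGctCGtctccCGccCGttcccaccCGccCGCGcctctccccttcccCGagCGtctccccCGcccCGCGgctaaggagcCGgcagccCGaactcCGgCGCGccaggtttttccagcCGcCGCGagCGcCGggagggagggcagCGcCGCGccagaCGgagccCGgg

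The 3 sequences differ in composition. The CG dinucleotide, which reads the same on both strands, occurred 18 times before *CHL1*, 4 times before *CNTN6* and 40 times before *CNTN4*, and 36.5%, 69.9% and 2.06% of the 27305 genes with such a sequence held at least as many. Of all of them 93.6% held at least 1. *CNTN6* held 4 matches of CANNTG, the E-box letters bound by basic helix-loop-helix factors such as NGN2, which also read the same on both strands, and *CHL1* and *CNTN4* held 0. Of the 43 members with a sequence in the table, 27 (62.8%) held at least 1 match, beside 62.2% of all genes. A match is a run of letters and not a measured site, and *CHL1* has 3 listed starts and *CNTN4* 2, so that another start would give other letters. The stretches of *CHL1* and *CNTN6* also lie past the GENCODE starts of these genes, at 196763 and 1092658, and that of *CNTN4* ends past its own, at 2098813. The letters of *CNTN6*, with 1 listed start, thus depend on the start chosen as well.

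Partners of the adhesion genes were counted from lists of other pathway genes. Over all genes, 48.3% of the iMN table and 42% of the i3N table stood at 1000 or more. Of all shared genes, 13.9% were at least 2-fold higher in the iMN table and 9.82% in the i3N table. Whether the counts of these short lists differ from such shares was not tested. Of 20 intracellular adaptors and scaffolds, 17 stood at 1000 or more in each table and 16 in both, 0 were at least 2-fold higher in the iMN table and 1 in the i3N table. That gene was *EPB41L3*, which ties contactin-associated proteins and SynCAMs to the cytoskeleton, at 6658 in the iMN table and 17331 in the i3N table. In scaled level per kilobase, *LIN7C*, a partner of the neurexin-binding kinase *CASK*, led the list in both tables with 48.3 and 31.7, and *APBA2*, a neurexin-binding adaptor, followed it in the iMN table with 29.4 and stood at 29.9 in the i3N table. *APBA1* was the third in the iMN table, at 27.9, and *EPB41L3* the second in the i3N table, at 31.5. Of 9 partners at the node and initial segment, 8 reached 1000 in both tables and 0 were 2-fold apart. The spectrins *SPTAN1*, at scaled levels per kilobase of 96.7 and 103, and *SPTBN1*, at 89.8 and 73.7, were the highest. Beside these counts, 11 and 11 of the 49 adhesion genes were 2-fold apart in the respective directions.

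Of 21 other synaptic organizers, all in both tables, 9 were at least 2-fold higher in the iMN table and 2 in the i3N table, beside 13.9% and 9.82% of all shared genes. Their median log2 difference was -0.85. The highest in scaled level per kilobase in the iMN table were the calsyntenins *CLSTN3*, at 88.5, and *CLSTN1*, at 86.1, and *LRFN4*, at 44.7. In the i3N table they were *CLSTN1* at 75.6, *LRRC4B*, a ligand of LAR-type phosphatases, at 32.9, and *CLSTN3* at 29.4. Of 17 secreted bridging partners, which link receptors across the cleft, 14 had a row in the iMN table and 16 in the i3N table, and 1 and 4 reached a mean normalized count of 1000. *LGI2* led in both, at 4768 and 8329. After it per kilobase came *NXPH4* (9.59) and *C1QL4* (4.61) in the iMN table, and the neurexophilin *NXPH2* (9.64) and *CBLN1* (7.50) in the i3N table. *CBLN4* has no row in either table used here, and *CBLN2* and *SPARCL1* none in the iMN table.

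The agrin receptor pathway, which acts in muscle, was low in both tables. Of 5 genes, 3 had a row in the iMN table and 4 in the i3N table, and 0 reached 1000. *LRP4*, the agrin receptor, stood at 43.7 and 74.7, *COLQ* at 45.8 and 113, and *DOK7* at 9.13 and 8.20. *MUSK*, the receptor kinase, stood at 1.99 in the i3N table and has no iMN row used here, and *RAPSN* has none in either. The lowest level listed in the iMN table was 7.73, above that of *MUSK*. The missing row of *MUSK* thus shows no difference between the tables. Total RNA of the ligand gene *AGRN* was thus abundant in both tables and that of the muscle-side genes was not. Transcript forms of *AGRN* were not told apart.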

How the data were processed

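RNA-seq was done on 12 libraries, 3 for each shRNA in iMNs and in i3Ns. Per the labels and the study's methods, the authors trimmed reads with fastp, quantified them with Salmon and compared groups with DESeq2; the labels also name STAR and hg38. Tool versions, the transcript annotation and the filter on low counts are not given in the sources used here. The deposited signal is each gene's mean over 6 libraries of a cell type of counts divided by size factors. The other value columns hold the authors' fold change, its standard error, p-value and adjusted p-value for knockdown against SCR, and were not used. There were 0 other columns of single libraries, so nothing was tested and no replicate could be left out.

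Rows of a symbol were summed. A member with no row entered the sums and shares of its family as 0. Percentiles are among all genes of a table. Levels were compared between tables after division by the table's sum, with thresholds of 1000 on the level and 2-fold on the ratio. Lengths and positions are from GENCODE release 44, with merged exons as length; 693 identifiers of the iMN table and 878 of the i3N table lie outside its main annotation. Python 3.11.15, pandas 2.3.3 and numpy 2.4.6 were used, and the scaling was tested on simulated data. Named with values were members at 1000 or more in either table, those 4-fold apart, those in 1 table, and of each partner list the 3 highest per kilobase and any missing, apart from 1 member and 1 partner that are not reported here. The member rule uses symbols only, but it, the lists and the thresholds were drawn up with earlier results of these data known.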

Additional observations from a re-analysis of the deposited data

How the results depend on the processing

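Precision is limited by the single pooled mean given for each gene, so whether a difference exceeds the spread between libraries is unknown. No paired analysis was possible because the values of single libraries were not used and no test was run. Of 69 alternative values, 65 lay within 1.5 times the reported count, percentile or fold and 0 changed direction. Many of them could hardly move. A filter on the level leaves the fold of a kept gene as it was, and another scaling shifts all genes alike. Counts and percentiles have no direction to change. These totals are therefore not a measure of how firm the results are. With a pseudocount of 10, the folds of *CNTN4* and *CNTN6* were 124 and 42.4 in place of 271 and 106. Raising the ratio from 2-fold to 4-fold left 7 members higher in the iMN table and 5 higher in the i3N table, fewer by construction. *NLGN1* sits at the 4-fold limit, with a log2 difference of -2.001 in scaled level and -1.94 with no scaling between the tables. With *CNTNAP2* taken from its main identifier, an alternative chosen after seeing the data, 10 members were higher in the i3N table. The shares with *NLGN4X* and with that identifier were also computed after seeing the data. Over 26 pairs of family and table, the leading member was the same for all 4 measures of length in 22. The exceptions were *CNTNAP1* or *CNTNAP2* in the i3N table, *FLRT1* or *FLRT2* in the iMN table, *CADM4* or *CADM3* in the iMN table and *CADM3* or *CADM1* in the i3N table.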

Other observations

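The adhesion genes were long. The median distance from gene start to gene end was 213 kb over the 51 members of the iMN table, against 32.7 kb over all its genes, and 224 kb over the 49 of the i3N table, against 28.7 kb. Of the members, 17 in each table spanned over 500 kb, beside 1.99% and 1.79% of all genes. The longest was *CNTNAP2* at 2305 kb, followed by *PTPRD* at 2299 kb and *NRXN3* at 1698 kb. Short members were present too, *SLITRK1* spanning 5.27 kb and *LRRTM2* 6.45 kb. Both directions of difference held long and short genes, with *CNTN4* (959 kb) and *LRRTM2* higher in the iMN table and *TENM3* (659 kb) and *FLRT3* (14.6 kb) higher in the i3N table.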
